A study of Homo sapiens with 8 samples.

Results

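The 10 genes described here are imprinted in at least some human tissues, where they are transcribed from only the copy inherited from 1 parent. They are SNRPN, ENSG00000214265, SNHG14, UBE3A, NDN and MAGEL2 at the chromosome 15 locus 15q11-q13, and H19, IGF2, MEG3 and PEG3 at other loci. They are 10 of the 56632 rows of the count table, and they were chosen from a list drawn up with their levels in these same 8 libraries already known. Their levels and differences are therefore a description, without a test, and they support no wider statement.

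RNA was measured by poly A+ selected, paired-end sequencing in 4 related human breast epithelial cell lines, with 2 biological replicates of each. M1 is MCF10A, a line that became immortal in culture and does not form tumors. M2, MCF10AT1k.cl2, came from MCF10A cells transfected with T24-HRAS, an activated form of the growth signalling gene HRAS, and passed through a xenograft. M3, MCF10Ca1h, and M4, MCF10CA1a.cl1, each came from a carcinoma that arose in a xenograft of M2 cells, so both derive from the transfected cells and each is a single line. All lines were grown for 8 days as 3D structures in Matrigel, a gel of basement membrane proteins, in medium with 2% horse serum. The medium of M1 and M2 contained the epithelial growth factor EGF at 10 ng/ml, and that of M3 and M4 did not. The line and the medium thus cannot be told apart where M3 or M4 is set beside M1, whereas M3 and M4 had the same medium.

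At an imprinted locus the copies from the mother and the father carry different DNA methylation, set in the germ line, and a control region decides which copy is read. At 15q11-q13 the paternal copy is read from the SNURF-SNRPN promoter, which lies in the imprinting center of the region, through SNRPN into the long noncoding RNA SNHG14. The far end of SNHG14 runs antisense to UBE3A, which is silenced on the paternal copy in neurons and is read from both copies in most other tissues. Loss of the paternal products is associated with Prader-Willi syndrome and loss of maternal UBE3A with Angelman syndrome. At 11p15 the noncoding RNA H19 is read from the maternal copy and the growth factor gene IGF2 from the paternal copy. The sequencing counts do not separate the parental copies, and no methylation was measured in these libraries.

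Start regions of the genes on which the results turn are shown because they hold CG sites, the sites at which DNA can be methylated. Whether these windows are methylated is not known here. Their starts come from another annotation than the gene spans below and need not be the same. Each is the RefSeq window of 250 bases before to 50 bases after a transcript start on GRCh38.p14, written 5′ to 3′ on the strand of the gene, with CG in capitals. The SNURF entry, chr15:24954737-24955036 on the plus strand, is also a start of SNRPN. The UBE3A entry is chr15:25439007-25439306 on the minus strand, and the H19 entry is chr11:2001217-2001516 on the minus strand.
SNURF: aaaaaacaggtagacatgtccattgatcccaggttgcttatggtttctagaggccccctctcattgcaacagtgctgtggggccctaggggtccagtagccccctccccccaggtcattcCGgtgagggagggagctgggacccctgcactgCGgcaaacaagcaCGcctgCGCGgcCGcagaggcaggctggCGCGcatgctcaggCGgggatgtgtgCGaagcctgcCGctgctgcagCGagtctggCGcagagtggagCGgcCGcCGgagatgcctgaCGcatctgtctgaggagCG
UBE3A: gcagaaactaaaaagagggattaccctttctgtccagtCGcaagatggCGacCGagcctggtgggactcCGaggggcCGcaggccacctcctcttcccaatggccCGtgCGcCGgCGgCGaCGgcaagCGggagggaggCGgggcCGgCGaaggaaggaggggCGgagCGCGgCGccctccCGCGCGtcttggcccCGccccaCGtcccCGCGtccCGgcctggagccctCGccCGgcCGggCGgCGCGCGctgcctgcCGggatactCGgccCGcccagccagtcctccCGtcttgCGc
H19: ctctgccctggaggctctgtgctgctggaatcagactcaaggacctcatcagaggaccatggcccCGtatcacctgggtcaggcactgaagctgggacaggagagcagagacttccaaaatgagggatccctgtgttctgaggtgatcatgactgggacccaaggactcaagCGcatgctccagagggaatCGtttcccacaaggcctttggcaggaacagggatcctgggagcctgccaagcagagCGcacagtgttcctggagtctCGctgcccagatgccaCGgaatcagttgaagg
The SNURF window held 18 CG, the UBE3A window 39 and the H19 window 6, and the median over 35116 RefSeq windows of the same length was 14. At least as many CG as in the SNURF window were present in 44.5% of all windows, against 8.71% for UBE3A and 66.3% for H19. The letters TGCCGC, searched on both strands, occurred 2 times in the SNURF window and were not found in the UBE3A and H19 windows. They occurred in 16.7% of all windows, and 2 or more times in 2.75%. Windows of other starts, not shown, differed. Those of SNRPN held 7, 2 and 11 CG with 0, 0 and 1 TGCCGC, and that of SNHG14 held 9 CG. The other UBE3A windows held 44 and 38 CG, and neither they nor the SNHG14 window held TGCCGC. These matches describe the reference sequence and were not tested against the counts.

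Each library held between 69669970 and 107350344 counts. A table of the study places M1 replicate 2 and M2 replicate 1 under each other's line. The sample labels are followed here. Where exchanging these libraries ended a call of a member or of a gene from the lists below, this is given beside the result. The members tested also have their M2 against M1 value with the exchange. Levels are in CPM, counts brought to a library of the same size with TMM factors, and a gene with no count in a library could still have held up to 3 counts, or between 0.0264 and 0.0426 CPM depending on the library. The epithelial identity of the lines was checked with 9 markers such as KRT5, KRT14 and CDH1. All 9 were above 1 CPM in every line, with a summed level of 9040 to 15920 CPM per library. This sum also hides opposite differences. KRT14 was at 99.7 and 91.1 CPM for M3 but 2.3 and 2.74 for M4, and TP63 at 61.4 and 80.2 for M3 and 36.2 and 39.8 for M4. KRT18 went the other way, at 1020 and 965 CPM for M3 and 2090 and 1340 for M4, as did KRT8. The part of these differences in the M3 and M4 values was not tested. Of 8 fibroblast markers, COL1A2 had no count and COL3A1, LUM, PDGFRA and PDGFRB were under 1 CPM in all lines. The summed level of the 8 ranged from 12.2 to 81.9 CPM and hides opposite differences. FAP, a surface protease, was at 1.96 and 2.82 CPM in M1, 7.15 and 6.08 in M2, 41.7 and 9.06 for M3, and 30.1 and 12.1 for M4, so that all M3 and M4 libraries lay above all M1 and M2 libraries. DCN, a matrix proteoglycan, was at 34.1 and 1.62 CPM in M1, 60.2 and 58.6 in M2, 1.01 and 2.11 for M3, and 0.167 and 0.0128 for M4. COL1A1 ranged from 6.07 to 25.5 CPM. The part of these fibroblast markers in the M3 and M4 values was not tested. Of 5 blood and endothelial markers, CD3E had no count and PTPRC, CDH5 and VWF were under 1 CPM. The summed level of these 5 was 4.15 to 25.1 CPM in M1 to M3 and 39.1 to 51.7 CPM in M4, nearly all of it from CD68, and its part in the M4 values was not tested.

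Of the 10 members, 5 had enough counts to enter the comparison across all genes, and these were SNRPN, ENSG00000214265, SNHG14, UBE3A and H19. The remaining 5 were at or near 0 in all 4 lines. SNRPN, ENSG00000214265 and SNHG14 were at or near 0 in M3 and were present at similar levels in M1, M2 and M4, while UBE3A beside them stayed within a narrow range in every line. H19 showed the other pattern, being present in M1, M2 and M3 and nearly absent in M4. Each line that lacked one of these signals thus kept the other.

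**Figure D1:**
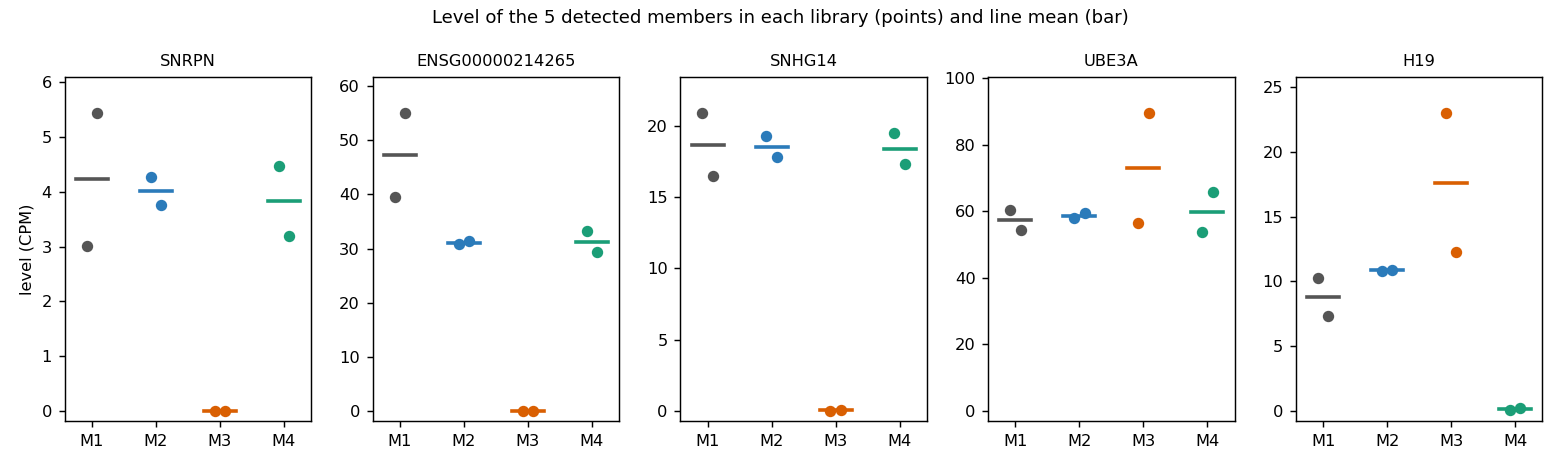
Level in CPM (vertical axis, a separate linear scale for each gene) of the 5 members with enough counts, by cell line (horizontal axis). Each point is 1 library and each bar the mean of the 2 replicates, and the points of SNRPN, ENSG00000214265 and SNHG14 lie at or next to 0 in M3, those of H19 in M4.

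SNRPN, which encodes the splicing factor SmN, spans chr15:25068784-25223870 on the plus strand (GENCODE release 44 on GRCh37). It had 249 and 446 counts for M1, 435 and 264 for M2, 0 and 0 for M3, and 507 and 249 for M4. Both M3 libraries lay below all 6 remaining libraries, the lowest of which held 3.01 CPM. The mean level was 4.22 ± 1.72 CPM in M1, 4.01 ± 0.367 in M2 and 3.83 ± 0.904 in M4 (SD, n = 2 each). Taking 3 counts per library as the floor for M3, SNRPN was at least 117-fold higher in M1, at least 111-fold higher in M2 and at least 106-fold higher in M4 than in M3. Among M1, M2 and M4 the ranges overlapped, and the log2 fold change was -0.07 (SE 0.39) for M2 against M1 and -0.14 (SE 0.39) for M4 against M1. With M1 replicate 2 and M2 replicate 1 exchanged, M2 against M1 became 0.34. In these bulk libraries, fewer cells with the transcript and less RNA per cell cannot be told apart.

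ENSG00000214265 is a protein-coding gene without a symbol in release 44, and it was entered in the member list under the name SNURF. It lies at chr15:25200181-25245423 on the plus strand and overlaps SNRPN over 23.7 kb. It held 3271 and 4515 counts for M1, 3134 and 2206 for M2, 0 and 0 for M3, and 3764 and 2292 for M4. The M3 libraries again stood apart, with no count against at least 29.4 CPM in each of the others. Its mean level was 47.3 ± 10.99 CPM in M1, 31.1 ± 0.411 in M2 and 31.3 ± 2.69 in M4 (SD, n = 2), which is at least 1308-fold, 859-fold and 864-fold above the M3 floor. The log2 fold change was -0.61 (SE 0.19) for M2 against M1 and -0.60 (SE 0.19) for M4 against M1, and neither was called. With M1 replicate 2 and M2 replicate 1 exchanged, these became 0.30 and -0.17, so the lower level in M2 depends on which line those libraries belong to.

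Reads in the overlap of SNRPN and ENSG00000214265 can be assigned to either, and the split between them is uncertain. SNRPN took 7.08% to 12.2% of their summed level in the 6 libraries with counts. The sum was 42.5 and 60.5 CPM in M1, 35.0 and 35.1 in M2, 0 and 0 for M3, and 37.6 and 32.6 in M4. The absence in M3 therefore did not rest on the way reads were divided between the overlapping genes.

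SNHG14, the host RNA of the SNORD116 and SNORD115 small nucleolar RNAs, spans chr15:25223730-25665483 on the plus strand, and its last 86.6 kb overlap UBE3A on the opposite strand. Its counts were 1729 and 1349 for M1, 1962 and 1252 for M2, 1 and 6 for M3, and 2211 and 1351 for M4. M3 kept a trace of reads, at most 0.0689 CPM, while the lowest library of the other lines held 16.5 CPM. The level in M1 was 444-fold that in M3, with a 95% counting interval of 215 to 1104, and the log2 fold change was -8.75 (SE 0.44) for M3 against M1 and 8.73 (SE 0.44) for M4 against M3. The size depended on the few M3 counts, since the M3 against M1 value was -10.37 without M3 replicate 2 and -8.05 without M3 replicate 1, and M4 against M3 was 10.35 and 8.03. M1, M2 and M4 were close, with log2 fold changes of -0.01 (SE 0.28) for M2 and -0.02 (SE 0.28) for M4 against M1. M2 against M1 was -0.23 with M1 replicate 2 and M2 replicate 1 exchanged. Use of strand in the counting is not given in the sources used here, so reads of SNHG14 and UBE3A in their overlap cannot be told apart with certainty.

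UBE3A, a ubiquitin ligase, spans chr15:25578875-25684198 on the minus strand, with its start 484 kb from the start of ENSG00000214265. It held 4998 and 4450 counts for M1, 5911 and 4182 for M2, 4484 and 7806 for M3, and 6096 and 5143 for M4. M3 replicate 2 was the highest library and M3 replicate 1 lay among the others, so the lines overlapped. The order of the mean levels from lowest to highest was M1, M2, M4 and M3, at 57.3 ± 4.33, 58.8 ± 0.989, 59.8 ± 8.61 and 73.1 ± 23.3 CPM (SD, n = 2), and no neighbours in that order differed by more than their spread. The highest library was 1.67-fold above the lowest. The log2 fold change was 0.35 (SE 0.22) for M3 against M1, between -0.01 and 0.65 when each library was left out in turn. It was 0.03 (SE 0.22) for M2 and 0.06 (SE 0.22) for M4 against M1, and -0.29 (SE 0.22) for M4 against M3. M2 against M1 was -0.06 with M1 replicate 2 and M2 replicate 1 exchanged.

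NDN and MAGEL2 are members of the MAGE gene family, expressed from the paternal copy in the nervous system, and had no count in any of the 8 libraries. They cannot show a difference between the lines at this depth. The same holds for MKRN3, also in the region and also at 0 in all libraries.

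The extent of the missing signal in M3 was then read along the chromosome. These rows were chosen by position after the member values had been seen. Of 22 rows between 15q11 and 15q13 with at least 10 counts in a library, 5 had at most 6 counts in both M3 libraries and at least 10 in every library of the other lines. They were SNRPN, ENSG00000214265, SNHG14, PWAR6 and ENSG00000261069, and they lie within 597 kb from the start of SNRPN to the end of SNHG14. No row behaved this way for M1, M2 or M4. PWAR6, a noncoding RNA at chr15:25277020-25281637, had 83 and 76 counts for M1, 77 and 63 for M2, 0 and 0 for M3, and 92 and 51 for M4, at least 26.7-fold, 22.8-fold and 20.2-fold above the M3 floor. ENSG00000261069, a noncoding RNA at chr15:25332808-25334043, had 93 and 51, 71 and 33, 0 and 0, and 56 and 50 counts for M1, M2, M3 and M4, at least 24.1-fold (M1), 16.1-fold (M2) and 15.7-fold (M4) above the M3 floor. Both lie inside the span of SNHG14 on the same strand and may share its reads.

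**Figure D2:**
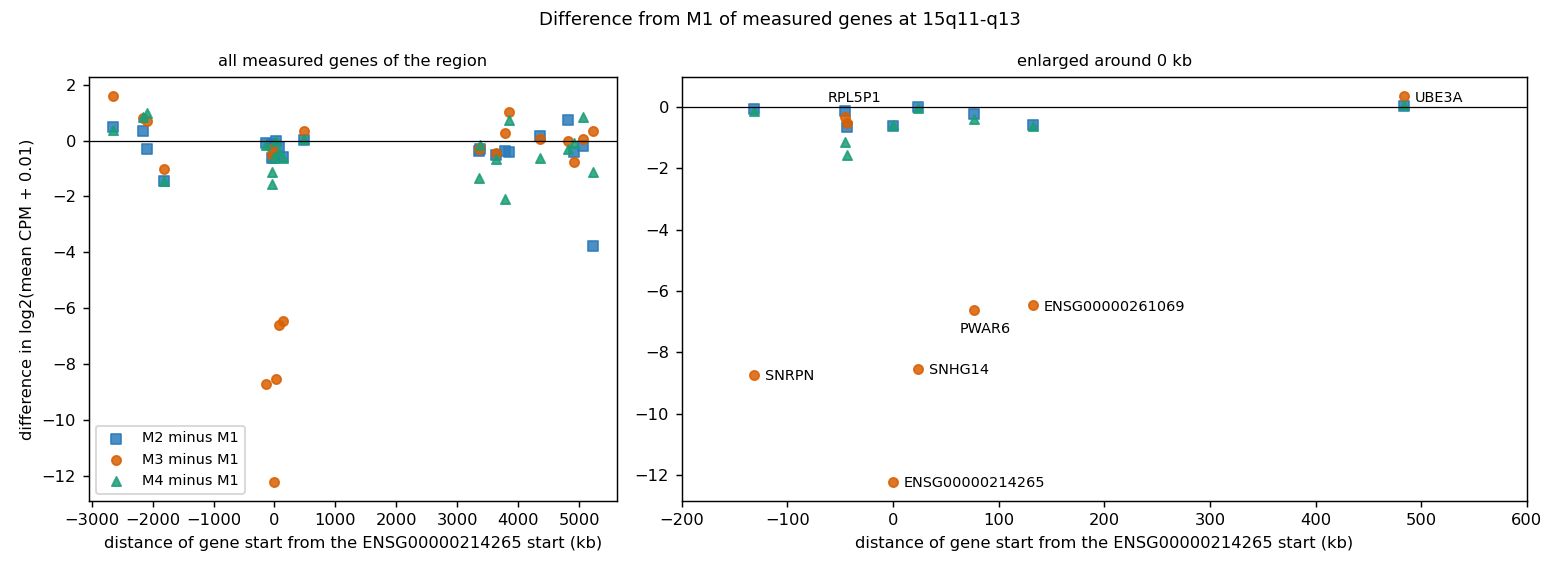
Difference from M1 in log2(mean CPM + 0.01) for M2, M3 and M4 (vertical axis) of the 22 measured 15q11-q13 rows against distance in kb from the start of ENSG00000214265 (horizontal axis), with the middle of the region enlarged on the right. The 5 M3 points far below 0 belong to SNRPN, ENSG00000214265, SNHG14, PWAR6 and ENSG00000261069, while UBE3A at 484 kb stays near 0, and how far down the 5 points lie depends on the added 0.01 CPM.

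Genes on either side of the imprinted block kept their counts in M3. Upstream, NIPA2, a magnesium transporter gene, had 4115 and 3400 counts for M1, 5860 and 4023 for M2, 5220 and 8323 for M3, and 8695 and 6864 for M4. Downstream, HERC2, a large ubiquitin ligase, had 8677 and 5854 for M1, 7283 and 5058 for M2, 4111 and 8245 for M3, and 7427 and 7106 for M4. Neither was lower in M3 than in the remaining lines beyond the spread of the replicates. Of 13 neighbours not known to be imprinted, 5 had enough counts for the test, namely NIPA1, NIPA2, HERC2, NSMCE3 and TJP1, and none was called in any of the 4 comparisons. Over all genes 3.37%, 13.5%, 20.7% and 10.3% were called in M2, M3 and M4 against M1 and in M4 against M3, so that few or no calls among 5 genes do not set the neighbours apart. By adjusted p without the fold criterion, NIPA1 and NIPA2 passed in M3 against M1, with log2 fold changes of 0.69 (edgeR adjusted p = 0.0376) and 0.82 (edgeR adjusted p = 0.0236). They also passed in M4 against M1, which kept the chromosome 15 transcripts, at 0.98 (edgeR adjusted p = 0.00734) and 0.85 (edgeR adjusted p = 0.015), together with TJP1, a tight junction protein gene, at 0.85 (edgeR adjusted p = 0.0163). TJP1 passed in M4 against M3 as well, at 0.80 (edgeR adjusted p = 0.035). Over all 631 tested genes of chromosome 15, the median log2 fold change of M3 against M1 was 0.19, against -0.02 over all 18431 tested genes. On the chromosome 78 genes (12.4%) were called higher and 27 (4.28%) lower, against 8.02% and 5.51% of all genes. The pseudogenes RPL5P1 and RPS27P2, which lie within SNRPN on the minus strand and may share reads with the ribosomal protein genes they resemble, also had counts in all libraries. Of 20 tested rows of the region, 2 were called lower in M4 against M1, where 11.2% of all genes were. They were the pseudogenes RPL41P2 (-1.33) and WHAMMP2 (-2.14), also called lower in M4 against M3 (-1.02 and -2.41), where 6.3% of all genes were. Their calls were not followed through the alternatives.

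SmN, the product of SNRPN, is related to SmB/B′, the product of SNRPB, and can replace it in the Sm ring of spliceosomal RNPs. SNRPB had 21563 and 19903 counts for M1, 32091 and 21438 for M2, 25304 and 22868 for M3, and 32903 and 23544 for M4. It was not called in any comparison, and its log2 fold change was 0.21 (SE 0.15) for M3 against M1. Of the 7 Sm core genes, SNRPG was called higher in M3 against M1, with a log2 fold change of 1.26 (SE 0.13, edgeR adjusted p = 0.0011). In M2, which kept SNRPN, SNRPG was also higher than in M1, by 0.955 (edgeR adjusted p = 0.00891), under the fold criterion. By adjusted p without the fold criterion, SNRPD1, SNRPE and SNRPF passed as well, higher in both M2 and M3 against M1 by 0.57 to 0.97. SNRPD2 was called lower in M4 against M1 (-1.06, SE 0.18, edgeR adjusted p = 0.00451). In M4 against M3, SNRPD2, SNRPE and SNRPG were called lower, with log2 fold changes between -1.39 and -1.16. The calls are 1, 1 and 3 of 7 genes in M3 against M1, M4 against M1 and M4 against M3. In these comparisons 13.5%, 20.7% and 10.3% of all genes were called, 6.3% lower in the last. With the 2 libraries exchanged, SNRPG in M2 against M1 became -0.02. SNRPG in M3 against M1 was then 0.70 and was not called, and SNRPE and SNRPG in M4 against M3 were not called either. SNRPD2 in M4 against M1 remained called there, and its call in M4 against M3 was lost without M3 replicate 1 or M4 replicate 1.

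H19, a noncoding RNA and the host of a microRNA, spans chr11:2016396-2025782 on the minus strand. It had 851 and 600 counts for M1, 1099 and 768 for M2, 1823 and 1067 for M3, and 6 and 19 for M4. Both M4 libraries lay below all others, at no more than 0.243 CPM against at least 7.32 CPM. The level was 67.5-fold higher in M1 than in M4 (95% counting interval 45.7 to 104), 83.1-fold higher in M2 (56.3 to 128) and 133-fold higher in M3 (90.2 to 206). The log2 fold change was -5.97 (SE 0.64) for M4 against M1 and -6.97 (SE 0.66) for M4 against M3. For M4 against M1 it was -7.32 without M4 replicate 2 and -5.16 without M4 replicate 1, the extremes when each library was left out in turn, and -6.21 with the 2 libraries exchanged. For M4 against M3 the same omissions gave -8.32 and -6.17. H19 was at 8.80 ± 2.10 CPM in M1, 10.9 ± 0.0880 in M2 and 17.6 ± 7.62 in M3 (SD, n = 2). M3 against M1 gave a log2 fold change of 1.00 (SE 0.49), which was not called, and M2 against M1 gave 0.30 (SE 0.48). With the 2 libraries exchanged these became 0.74 and -0.21, so the direction for M2 depends on which line those libraries belong to.

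The other members at other loci carried too few counts to compare. IGF2, 125 kb from H19, had 6 counts in M2 replicate 1 and 7 for M4 replicate 2 and none in the remaining 6 libraries. MEG3, a maternally read noncoding RNA at 14q32, had 1 count in M3 replicate 1 and none elsewhere. PEG3, a zinc finger gene at 19q13 read from the paternal copy, had no count in any library. IGF2 therefore had too few counts to be set beside H19.

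The surroundings of H19 were read in the same way for M4. Of 29 rows of 11p15 with at least 10 counts in a library, chosen by position after the member values had been seen, H19 exceeded the limit of 6 counts in M4 replicate 2, and only LSP1 had at most 6 counts in both M4 libraries and at least 10 in all others. LSP1, an actin-binding protein, had 45 and 96 counts for M1, 201 and 130 for M2, 39 and 20 for M3, and 4 and 0 for M4. MRPL23, a mitochondrial ribosomal protein gene 57.3 kb from the H19 start and between LSP1 and H19, had 4139 and 4198 counts for M1, 5829 and 3803 for M2, 5549 and 4189 for M3, and 4716 and 3222 for M4. The 11p15 rows, which cover only the part from DUSP8 to ZNF195, comprised 3 called higher and 7 lower in M4 against M1 of 26 tested. Over all genes 9.48% were called higher and 11.2% lower. The 7 include H19 itself, around which the rows were chosen, and IFITM10 and ENSG00000250644, which overlap each other. Nothing is therefore read from this share. Of 957 tested genes of chromosome 11, 86 (8.99%) were called higher and 122 (12.7%) lower, with a median log2 fold change of -0.04.

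**Figure D3:**
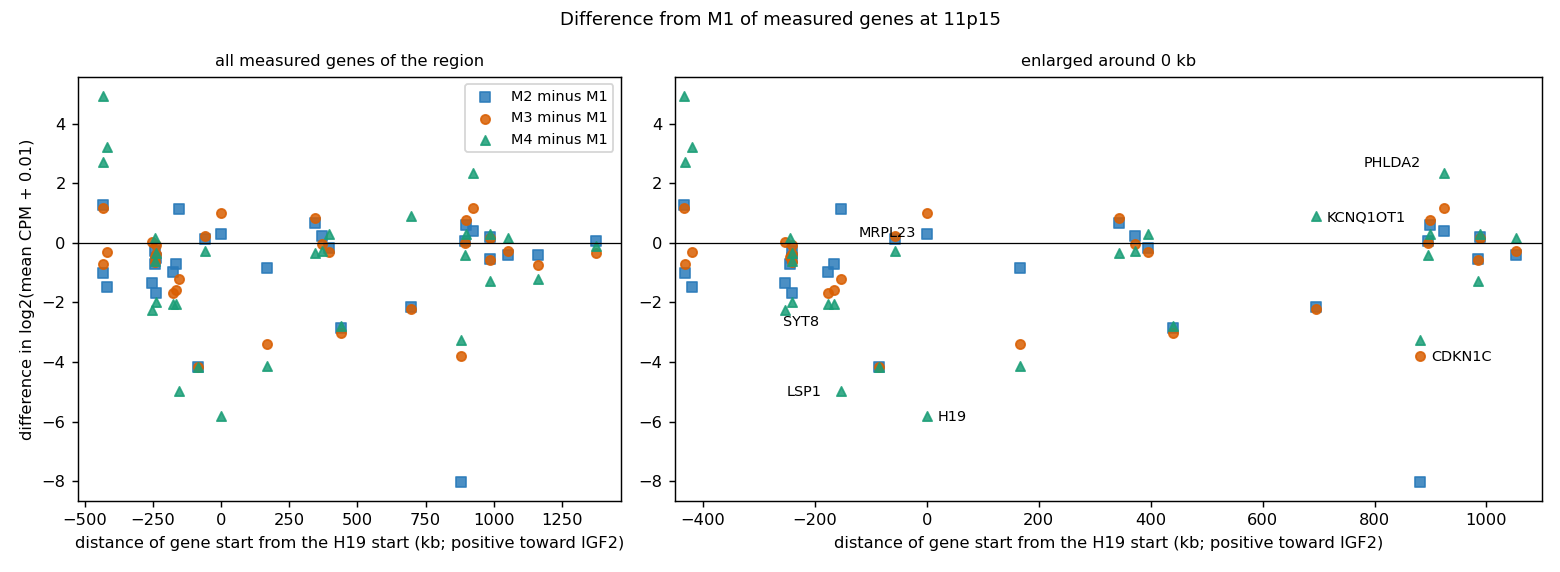
Difference from M1 in log2(mean CPM + 0.01) for M2, M3 and M4 (vertical axis) of the 29 measured 11p15 rows against distance in kb from the H19 start (horizontal axis, positive toward IGF2), with the part around H19 enlarged on the right. H19 and LSP1 are low in M4, MRPL23 between them stays near 0, and CDKN1C is low in M2, M3 and M4 against an M1 mean carried by 1 replicate.

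Counted over the comparison across all genes, a call required an adjusted p under 0.05 and an absolute log2 fold change above 1. In M2 against M1, none of the 5 members tested was called, where 3.37% of the 18431 genes were called, 2.26% higher and 1.11% lower. In M3 against M1, 3 members were called lower, where 13.5% of all genes were called, 8.02% higher and 5.51% lower. In M4 against M1, 1 member, H19, was called lower, where 20.7% of all genes were called, 9.48% higher and 11.2% lower. In M4 against M3, 3 members were called higher and 1 lower, where 10.3% of all genes were called, 3.99% higher and 6.3% lower. Nothing is read from these counts, since the member levels chose the list. The comparisons share libraries of M1, M3 or M4 and are not independent. Every member call was the same under all alternatives run, 14 for each gene and 15 for the overlapping SNRPN and ENSG00000214265, except that H19 in M3 against M1 was called when the low count filter was removed.

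Low levels in only 1 line were also measured in other genes, at a bar of 20-fold. That bar lies below the differences of SNRPN, ENSG00000214265, SNHG14 and H19, and how many genes reach the size of these was not counted. More than 20-fold lower levels in both libraries of 1 line than in every other library were found for 37 of 18431 tested genes in M3 (0.201%), including SNRPN, ENSG00000214265 and SNHG14. The same rule gave 101 genes in M4 (0.548%), including H19, 23 in M1 and 33 for M2. The rule was set after the member values had been seen and is a description.

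Genes whose levels followed SNRPN most closely were ranked by Pearson's r of log2(CPM + 0.5) over the 8 libraries, among 13289 genes with a mean of at least 1 CPM. The points share their libraries and lines, and the 2 low M3 points carry the values. The 5 highest were ENSG00000214265 (r = 0.990), AFAP1L2 (0.983), SNHG14 (0.982), ENSG00000227184 (0.978) and MGMT (0.976). MGMT, a DNA repair gene on chromosome 10, had 1372 and 1471 counts for M1, 1803 and 1263 for M2, 0 and 1 for M3, and 994 and 681 for M4. AFAP1L2, an adaptor protein gene on chromosome 10, kept 219 and 162 counts in M3 against at least 688 in each other library. The 5 genes closest to UBE3A were ZNF672, RFESD, FBXO28, E2F6 and SNX27, with r from 0.954 to 0.965. Each of these 5 was highest in M3 replicate 2 in counts, the library in which UBE3A was highest.

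Other imprinted genes were taken from a list of 45, of which 37 were in the count table and 21 had enough counts, PWAR6 at the chromosome 15 locus and 20 elsewhere. PWAR6 was the only one of these 21 on chromosome 15, and it was called lower in M3 against M1 (edgeR adjusted p = 0.00117) and higher in M4 against M3 (edgeR adjusted p = 0.00256). Of the 20 elsewhere, none was called in M2 against M1, where 3.37% of all genes were called. In M3 against M1, 1 was called higher and 2 lower, where 13.5% of all genes were called. In M4 against M1, 4 were called higher and 2 lower, beside 20.7% of all genes, and in M4 against M3, 4 higher and 2 lower, beside 10.3% of all genes. The median log2 fold change of these 20 was -0.16, -0.29, -0.42 and 0.23 in the 4 comparisons, against -0.04, -0.02, -0.02 and -0.02 over all tested genes. Read by the rule used for the chromosome 15 rows, 0 of these 20 genes had at most 6 counts in both libraries of 1 line and at least 10 in all others, for any of the 4 lines.

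**Figure D4:**
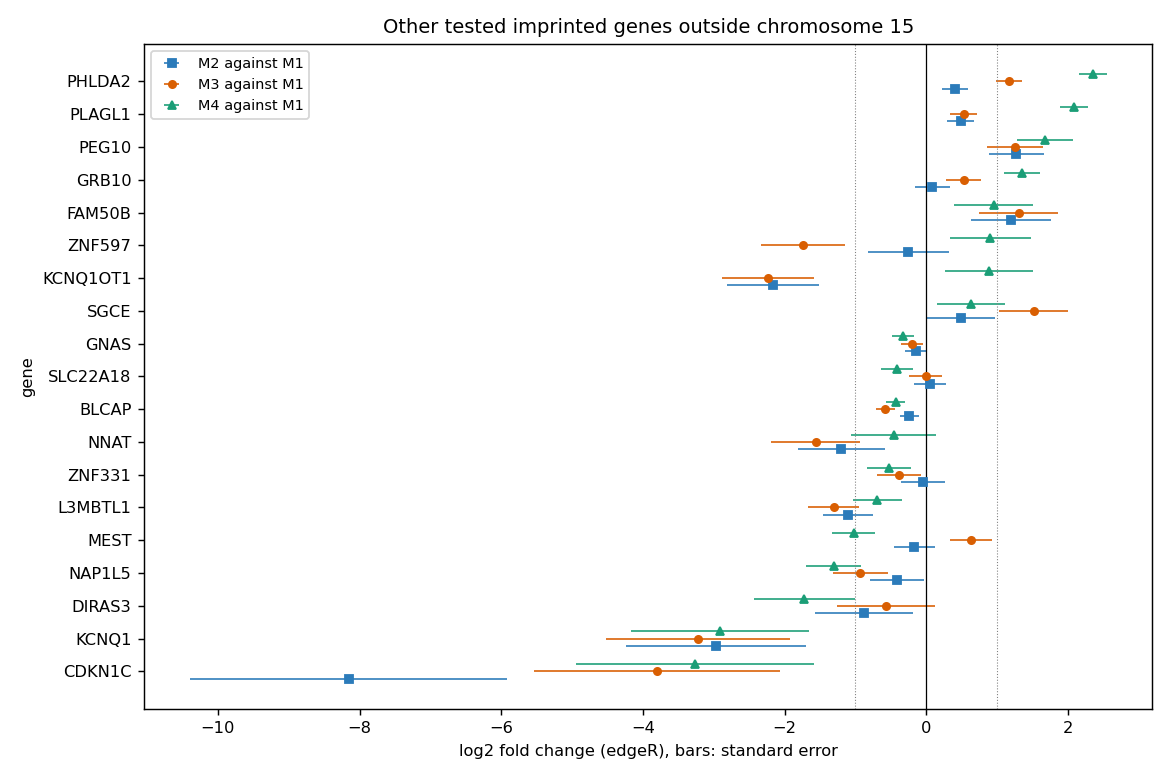
Log2 fold change against M1 (horizontal axis) with its standard error (bars) of 19 tested imprinted genes outside chromosome 15 (vertical axis), for M2, M3 and M4, with dotted lines at -1 and 1. GNAS-AS1 is left out because M4 had no count and M1 only 4, and the bars of CDKN1C and KCNQ1, whose M1 replicates lie far apart, are the widest.

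The genes higher in M4 included PHLDA2, a growth-restraining gene of the 11p15 cluster read from the maternal copy. It had 3577 and 2693 counts for M1, 5226 and 3485 for M2, 5878 and 8396 for M3, and 23078 and 14496 for M4. The log2 fold change was 1.17 (edgeR adjusted p = 0.00539) for M3 and 2.35 (edgeR adjusted p = 0.000279) for M4 against M1, and 1.19 (edgeR adjusted p = 0.00781) for M4 against M3. The rise in M4 against M1 was called under every alternative run. The M3 value was 0.85 with the 2 libraries exchanged and was not called, and it was 0.98 without M1 replicate 2 and 0.97 without M3 replicate 2. M4 against M3 was not called without M4 replicate 1. PLAGL1, a zinc finger transcription factor at 6q24, had 552 and 497 counts for M1, 940 and 604 for M2, 746 and 781 for M3, and 3441 and 1847 for M4, a log2 fold change of 2.08 (edgeR adjusted p = 0.000452) for M4 against M1 and 1.55 (edgeR adjusted p = 0.00383) for M4 against M3. GRB10, an adaptor that dampens insulin receptor signalling, had 2403 and 1433 counts for M1 and 6288 and 4950 for M4, a log2 fold change of 1.35 (edgeR adjusted p = 0.00629). Both PLAGL1 and GRB10 kept these calls under every alternative run. PEG10, a gene derived from a retrotransposon, had 2874 and 7202 counts for M1 and 17897 and 18312 for M4, a log2 fold change of 1.68 (edgeR adjusted p = 0.0167). It was not called in a fit restricted to M1 and M4, without M4 replicate 2 or with the 2 libraries exchanged.

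MEST, a hydrolase-like gene at 7q32 read from the paternal copy, was lower in M4. It had 5204 and 9691 counts for M1, 8290 and 5624 for M2, 12662 and 10596 for M3, and 4320 and 3968 for M4. The log2 fold change was -1.03 (edgeR adjusted p = 0.0332) for M4 against M1 and -1.66 (edgeR adjusted p = 0.0122) for M4 against M3. Without M1 replicate 2, M4 against M1 was -0.50 and was not called, and the call was also lost without any 1 library of M2 or M4, in a fit restricted to M1 and M4, and with the 2 libraries exchanged (-0.70). M4 against M3 was not called without M3 replicate 1 or M4 replicate 1. NAP1L5, a nucleosome assembly protein relative, had 400 and 337 counts for M1 and 237 and 119 for M4, a log2 fold change of -1.30 (edgeR adjusted p = 0.0367), and this call was lost when any 1 library of M1, M2 or M4 was left out, in a fit restricted to M1 and M4 (-1.31), and with the 2 libraries exchanged (-1.17).

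KCNQ1OT1, the noncoding RNA of the second 11p15 control region, had 577 and 139 counts for M1, 114 and 57 for M2, 95 and 56 for M3, and 1040 and 536 for M4. The log2 fold change was -2.23 (edgeR adjusted p = 0.0458) for M3 against M1 and 3.12 (edgeR adjusted p = 0.0209) for M4 against M3. M1 replicate 1 carried the M3 value, which was -0.88 and not called without it, and that call was also lost without any 1 library of M2, M3 or M4. It was lost too with the 2 libraries exchanged (-2.13) and in a fit restricted to M1 and M3 (-2.24), where the fold stayed about as large. The M4 against M3 call was lost without any 1 library of either line and with the exchange (3.12). L3MBTL1, a chromatin reader, had 270 and 372 counts for M1 and 120 and 142 for M3, a log2 fold change of -1.31 (edgeR adjusted p = 0.0372), which became -0.64 with the 2 libraries exchanged and was not called, and the call was also lost without M1 replicate 2, without any 1 library of M2 or M3, and in a fit restricted to M1 and M3. ZNF597, a zinc finger gene, had 74 and 22 counts in M3 and 434 and 280 for M4, a log2 fold change of 2.64 (edgeR adjusted p = 0.026) for M4 against M3, and it was not called when any 1 library of M2 or M4 was left out or with the 2 libraries exchanged. GNAS-AS1, antisense to GNAS, had 17 and 34 counts in M3 and none in M4 and was at least 9.33-fold higher in M3 (edgeR adjusted p = 0.028), a call lost without any 1 library of M2, M3 or M4 and with the 2 libraries exchanged.

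Of 10 genes that maintain imprints, 9 were in the count table and 8 had enough counts, and ZFP57 was the only one called in any of the 4 comparisons, 1 of 8 in M4 against M1 where 20.7% of all genes were called. By adjusted p without the fold criterion DNMT1, the maintenance DNA methyltransferase, also passed, higher in M3 against M1 by a log2 fold change of 0.74 (edgeR adjusted p = 0.0155) and in M4 against M1 by 0.83 (edgeR adjusted p = 0.00695). DNMT1 in M2 against M1 was nearly as much higher, at 0.69 (SE 0.16, edgeR adjusted p = 0.0506), so the difference was not particular to M3 and M4. ZFP57, a zinc finger protein that binds the TGCCGC motif when it is methylated, had 0 and 2 counts for M1, 10 and 0 for M2, 12 and 28 for M3, and 60 and 33 for M4. It was called higher in M4 against M1 (edgeR adjusted p = 0.029), at a ratio of 39.99 with a 95% counting interval of 11.1 to 330.2. The M1 level rests on 2 counts, and the call was lost when either M1 or either M4 library was left out, and with the 2 libraries exchanged. Its level in M3, at 0.236 ± 0.120 CPM (SD, n = 2), lay between those of M1 and M4.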

How the data were processed

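The deposited table holds expected counts of each gene in the 8 RNA-seq libraries, 2 per cell line. The authors trimmed reads with Trimmomatic, aligned them to hg19 with STAR and derived these expected counts from the GENCODE v19 models with STAR/RSEM. The versions of these tools and the use of strand are not given in the sources used here. The values were not normalized by the authors before deposit. Lines and replicate numbers came from the sample labels. The p-values rest on the spread between the 2 replicates of each line, estimated jointly over all lines in the fit. A library of a line outside a comparison can therefore change its p-values.

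Expected counts were rounded to whole numbers. After filterByExpr and TMM scaling, a model with a coefficient for each line was fitted to all 8 libraries with edgeR 4.0.16 (R 4.3.3), and 18431 genes were tested by its robust quasi-likelihood F test with p-values adjusted by the Benjamini-Hochberg method. The SE of a log2 fold change is that implied by the F statistic. A call required an adjusted p under 0.05 and an absolute log2 fold change above 1. CPM used TMM library sizes. A line at 0 was set to 3 counts per library for a lower bound of the fold, and ratios to a few counts have 95% intervals that cover counting error only. Gene spans came from GENCODE release 44 on GRCh37, which matched 94.7% of the genes with a count and can differ from the v19 models that were counted. Promoter windows came from RefSeq on GRCh38.p14.

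Members and lists were chosen with earlier results of these data known. The lists of other imprinted genes, 15q11-q13 neighbours, imprint maintenance and Sm core genes were written from general knowledge. The genes named are all members, other imprinted genes called in at least 1 comparison with at least 10 counts in each library of the higher line (at most 12), list genes called by the same rule (at most 5 a list), and the 5 genes most like SNRPN and UBE3A. NIPA1, NIPA2, HERC2, TJP1, DNMT1, SNRPB, MKRN3, CDKN1C, RTL1, MEG9 and the genes of the positional readings were named after their values were seen.

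The alternatives were edgeR's RLE scaling, DESeq2 1.42.0, no low count filter, no fold threshold, a replicate block, only the lines compared, leaving out each library, the exchange of M1 replicate 2 and M2 replicate 1, and SNRPN summed with ENSG00000214265. Tested on simulated counts for M4 against M1 over 18431 genes, the fit called 62 of 100 genes changed 4-fold, 89 of 100 changed 16-fold, and 2 of 18231 unchanged genes. Each simulated gene had the spread typical of its level, so genes whose replicates lie far apart were not modelled. The simulation therefore does not give the error rate in these data. Tables and plots were made in Python 3.11.15 (scipy 1.17.1, numpy 2.4.6, pandas 2.3.3, matplotlib 3.10.9).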

Additional observations from a re-analysis of the deposited data

How the results depend on the processing

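The chromosome 15 and H19 differences kept their calls under all alternatives. This is a description and no support, since the members were chosen with their levels in these same libraries known. Counts over all genes and over the wider lists moved. Genes called in M2 against M1 numbered 622, with 1326 by DESeq2, 1788 without the low count filter, 0 with the 2 libraries exchanged, and 0 to 876 leaving out each library (0 and 2 without an M2 replicate). M3 against M1 gave 2494, with 1659 from only the lines compared, 219 with the exchange and 3918 without a fold threshold. M4 against M1 gave 3821, with 1559 with the exchange, 5779 without a fold threshold, and 2425 (without M4 replicate 2) to 3742 leaving out each library. M4 against M3 gave 1897, with 2916 without the low count filter, 830 with the exchange, 3091 without a fold threshold, and 598 (without M4 replicate 1) to 2197 leaving out each library. Other imprinted genes called in M2 against M1 were 0, with 4 by DESeq2, 4 without the low count filter and 0 to 3 leaving out each library. In M3 against M1 they were 4, with 7 by DESeq2, 10 without the filter, 2 from only the lines compared, 1 with the exchange and 2 to 6 leaving out each library. In M4 against M1 they were 6, with 3 from only the lines compared, 3 with the exchange and 3 to 7 leaving out each library, and in M4 against M3 they were 7, with 4 with the exchange and 2 to 7. Neighbours of 15q11-q13 called were 0 in all comparisons, with 2, 3 and 1 in M3 against M1, M4 against M1 and M4 against M3 without a fold threshold, 1 in M4 against M1 with the exchange, and 0 to 1, 0 to 3 and 0 to 1 leaving out each library. The causes were not tested.

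Same-numbered replicates did not deviate together (r from -0.02 to 0.12 over pairs of lines), so the numbers do not pair the samples. With the replicate block, 587, 2338, 3628 and 1756 genes were called in M2, M3 and M4 against M1 and in M4 against M3, and the members called were 0, 3, 1 and 4, as without it. Other imprinted genes called were 0, 4, 5 and 7, and L3MBTL1 in M3 against M1 and NAP1L5 in M4 against M1 were not called. With 2 replicates a line, genes under about 10 counts carry a large counting error.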

Other observations

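Imprinted genes outside the calls also showed replicates that lay far apart. CDKN1C, a cell cycle inhibitor of the 11p15 cluster, differed between the M1 replicates, with 5332 and 29 counts, and had 9 and 10 for M2, 293 and 83 for M3 and 418 and 236 for M4. For M2 against M1 the log2 fold change was -8.15 (SE 2.24) and was not called (edgeR adjusted p = 0.0866). At 14q32, where MEG3 was at the floor, RTL1, a gene derived from a retrotransposon, had 7 and 4 counts in M4 and none in the other lines, and MEG9, a noncoding RNA, had 9 and 2 in M4, 0 and 1 in M3 and none in M1 and M2. Both were below the filter and were not tested.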
